A study of Mus musculus with 18 samples.

Results

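The NF-kB subunits and their inhibitors were followed in Foxp3+ regulatory T cells (Tregs) that had lost CD25. The 10 genes were chosen by symbol: the 5 subunits Nfkb1, Nfkb2, Rel, Rela and Relb, the cytoplasmic inhibitors Nfkbia, Nfkbib and Nfkbie, the nuclear IkB protein Nfkbiz, and Tnfaip3, which encodes A20. Each of the 10 had 1 row among the 50600 genes of the count table, and all 10 passed the filter on low counts in every comparison.

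CD25 is the alpha chain of the IL-2 receptor, encoded by Il2ra, and the study asked which transcripts depend on it in Tregs of the thymus and of the spleen. RNA was sequenced from sorted Tregs of 18 C57BL/6 mice, 1 library per mouse. Thymic Tregs came from 5 CD25 KO mice, in which a floxed Il2ra allele was removed by YFP/Cre expressed from the Foxp3 locus, and from 5 Foxp3/RFP reporter mice as WT, all 3 to 4 weeks old. The thymic CD25 KO mice had received WT splenocytes as neonates to prevent autoimmunity, and the thymic WT mice carried another Foxp3 reporter allele. Splenic Tregs came from 4 CD25 KO mice (CD25flox/Foxp3eGFP-Cre-ERT2/R26Y) and from 4 reporter mice as WT. Both splenic groups had received tamoxifen at 7 to 10 weeks of age and were harvested 10 to 14 days later, so this deletion was acute. Tissue, age, mouse model and the date in the library names differed together and cannot be told apart, so the main comparisons were made within a tissue. Within the thymus, loss of CD25 went together with the splenocyte transfer and the Foxp3 allele, and their effects cannot be told apart either. Comparisons across tissues carry all of these differences.

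NF-kB is a family of dimeric transcription factors that T cells use downstream of the antigen receptor, CD28 and TNF receptors. In the canonical arm, the IKK complex phosphorylates IkB proteins, which are degraded and release dimers of p50 (from Nfkb1), c-Rel (Rel) and RelA (Rela). In the non-canonical arm, NIK drives the processing of p100 (from Nfkb2) to p52, which pairs with RelB (Relb). Several inhibitors are themselves NF-kB targets and so form negative feedback, and c-Rel is known for its part in the thymic development of Tregs, where it acts on Foxp3. Transcript levels do not report the location or processing of these proteins.

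Promoter sequence was examined because much of this family is known to be controlled by NF-kB itself. RefSeq promoters (GRCm38.p6) were matched for 7 of the 10 genes, and the entries gave 10 start sites. In the 250 bases upstream of each start, a match to the kB consensus on either strand was present at 7 of the 10 starts, belonging to 5 of the 7 genes, against 7.25% of all 32807 promoter windows. A STAT motif (TTCNNNGAA, which reads the same on both strands) was found at 1 of the 10 starts, the first of Nfkb2, against 7.02% of all windows, and it did not overlap a kB match. The stretches of 30 bases that hold 1 such match for each gene are given because the count of matches rests on them. They are written 5′ to 3′ on the strand of the gene, with the kB match in capitals (11 capitals where 2 matches overlap). A match is only a match of letters. The stretch of Nfkb2 lies at chr19:46304688-46304717 (plus strand), within an annotated Nfkb2 exon that another start uses. That of Rel lies at chr11:23771042-23771071 (minus strand), that of Nfkbia at chr12:55492657-55492686 (minus strand), that of Nfkbie at chr17:45555584-45555613 (plus strand) and that of Tnfaip3 at chr10:19015411-19015440 (minus strand). The Tnfaip3 stretch lies within the annotated gene (19000910-19015657), upstream of a RefSeq start that lies further in.
Nfkb2, first start: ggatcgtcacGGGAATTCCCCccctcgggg
Rel: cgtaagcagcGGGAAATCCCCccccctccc
Nfkbia: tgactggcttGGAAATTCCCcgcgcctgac
Nfkbie: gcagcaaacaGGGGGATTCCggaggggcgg
Tnfaip3, first start: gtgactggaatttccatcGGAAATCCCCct

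The libraries held 17239774 to 32639570 assigned reads. Il2ra was lower in every CD25 KO library than in any WT library of the same tissue. Its level was 524 to 682 CPM (reads of the gene scaled to the effective size of the library) in thymic WT and 95.8 to 280 CPM in thymic CD25 KO, and 488 to 538 CPM in splenic WT and 168 to 208 CPM in splenic CD25 KO. These counts cover all exons and cannot separate transcripts that lack the deleted part. The summed level of 6 Treg markers (Foxp3, Ikzf2, Ctla4, Cd4, Cd3e and Cd5) was 3200.0 to 3939 CPM in thymic WT, 3399 to 3756 CPM in thymic CD25 KO, 3170.0 to 3302 CPM in splenic WT and 3568 to 3922 CPM in splenic CD25 KO. Within that list Foxp3 was lower in CD25 KO in both tissues (-0.74 in thymus and -0.55 in spleen, log2 fold changes), Cd3e was lower in thymus, and Ikzf2, Cd4 and Cd3e were higher in spleen. The B cell gene Ms4a1 had at most 12 reads in any library. In these bulk samples, fewer cells of a type and less RNA per cell cannot be told apart.

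In splenic Tregs, loss of CD25 went with more transcript of the A20 gene Tnfaip3 and of both non-canonical subunits, Nfkb2 and Relb, and with less Nfkbiz. The canonical subunits Nfkb1, Rel and Rela did not pass the test. Of the 10 genes, 3 were higher and 1 was lower at a false discovery rate (FDR) under 0.01 in the quasi-likelihood test of edgeR, after Benjamini-Hochberg adjustment over the 17463 genes tested. In the same comparison 9.45% of all genes were called, 5.90% higher and 3.55% lower. At an FDR under 0.05, 7 of the 10 passed, against 17.2% of all genes. The median log2 fold change of the 10 genes was 0.19, beside -0.006 over all genes.

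**Figure D1:**
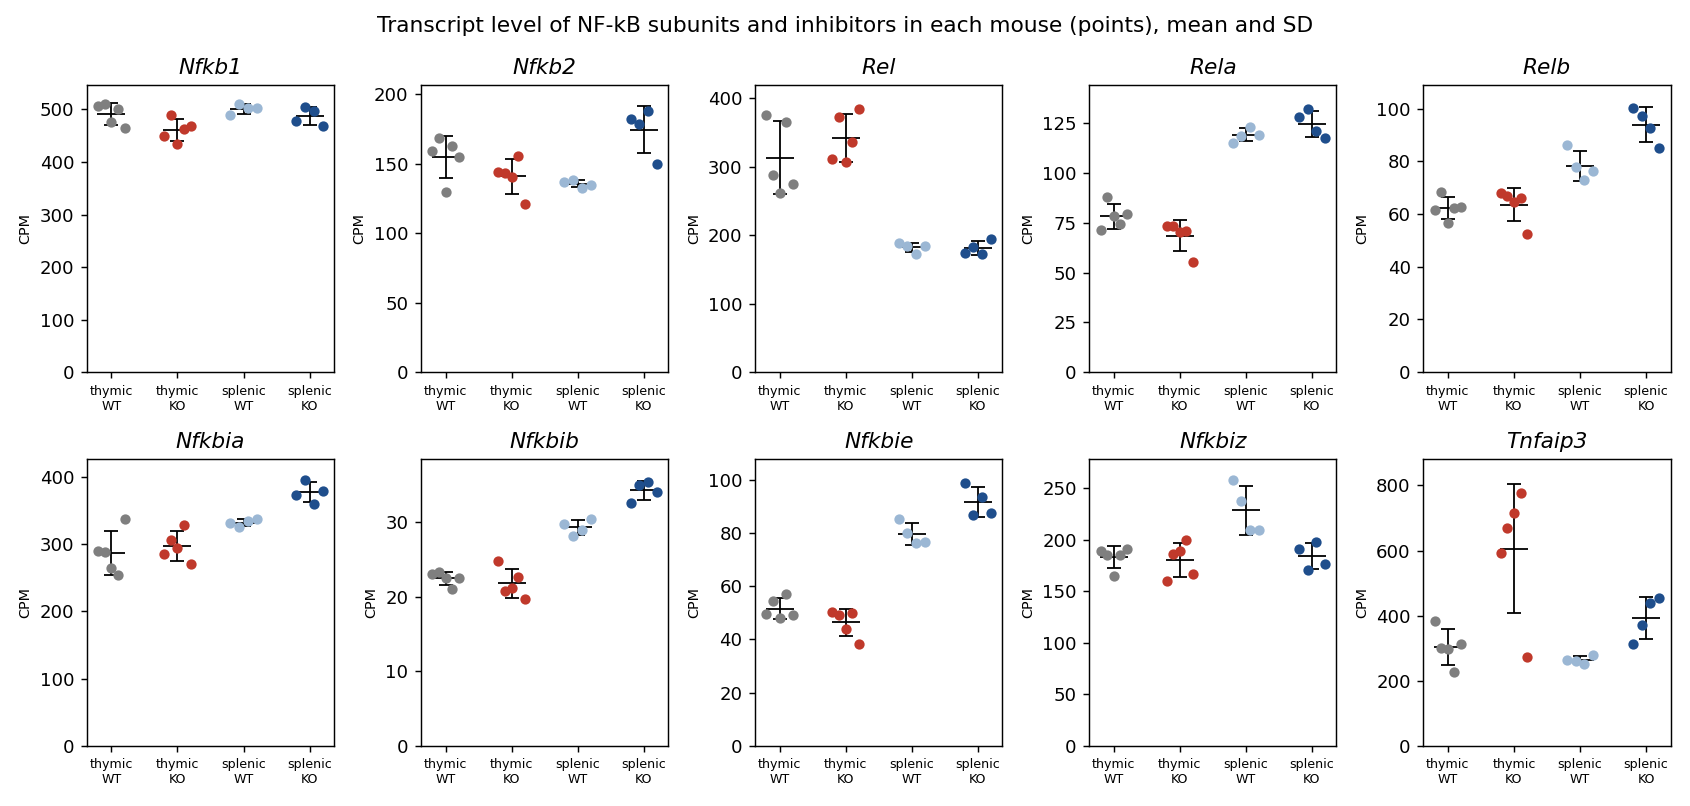
CPM (vertical axis, from 0) of each of the 10 genes in each mouse (points), with the mean and SD as a dash and bars, for thymic WT and CD25 KO (5 mice each) and splenic WT and CD25 KO (4 mice each). The splenic CD25 KO mice lie above all splenic WT mice for Tnfaip3 and Nfkb2 and below them for Nfkbiz, and 1 thymic CD25 KO mouse lies apart from the other 4 for Tnfaip3.

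Among the splenic subunits, Nfkb2 (chromosome 19, 46304320-46312385, GRCm38) encodes p100, the precursor of p52 that also acts as an inhibitor of RelB. It was at 137, 139, 132 and 135 CPM in the 4 WT mice and at 182, 179, 188 and 150.1 CPM in the 4 CD25 KO mice. All CD25 KO mice were above all WT mice, with CD25 KO mouse 4 closest to them. The log2 fold change was 0.37 ± 0.0628 (SE), with an adjusted p of 0.00076 by edgeR's quasi-likelihood test. The call was kept in all 8 fits that left out 1 splenic mouse (adjusted p from 3.63e-05 to 0.00441). Exons of genes on the opposite strand, Psd and a non-coding RNA, cover 18.11% of the exonic length of Nfkb2, and their reads could not be told apart from those of Nfkb2.

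Relb, the partner of p52, was at 86.1, 77.8, 72.8 and 76.3 CPM in splenic WT and at 100.4, 97.1, 92.7 and 85.03 CPM in splenic CD25 KO. The groups overlapped, since CD25 KO mouse 4 lay below WT mouse 1. Its log2 fold change was 0.26 ± 0.0643 (SE), and its adjusted p of 0.00995 by edgeR lay just under the threshold. It was called in only 2 of the 8 fits that left out 1 mouse, with an adjusted p of up to 0.0428.

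Nfkb1, which encodes p105 and p50, had 488.7, 511, 502.5 and 503 CPM in splenic WT and 477, 505.0, 498 and 469 CPM in splenic CD25 KO. These ranges overlapped (log2 fold change -0.039 ± 0.0473, SE). Rel, which encodes c-Rel, had 172 to 188 CPM in splenic WT and 172 to 194 CPM in splenic CD25 KO, with a log2 fold change of -0.0089 ± 0.0534 (SE). For Rela, which encodes the main transactivating subunit of canonical dimers, the WT mice spanned 115 to 123 CPM and the CD25 KO mice 118 to 132 CPM. The groups overlapped for each of these 3 canonical subunits, and their adjusted p-values in edgeR's test were 0.629, 0.934 and 0.41.

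All 3 cytoplasmic inhibitors had CD25 KO levels above every WT mouse in the spleen, but none passed the FDR threshold of 0.01 in the edgeR fit. DESeq2 called Nfkbia (adjusted p = 0.000763) and Nfkbib (adjusted p = 0.00611), and the edgeR fit with GC correction called Nfkbib (adjusted p = 0.00936) and Nfkbie (adjusted p = 0.00446). Nfkbia encodes IkB-alpha, the rapidly resynthesised inhibitor of canonical dimers. It was at 332, 326, 334 and 337 CPM in WT and at 374, 396, 361 and 379 CPM in CD25 KO. The log2 fold change was 0.19 ± 0.0475 (SE) and the adjusted p by edgeR was 0.0129, just outside the threshold. For Nfkbib, which encodes IkB-beta, WT mice had 28.2 to 30.4 CPM and CD25 KO mice 32.5 to 35.4 CPM (log2 fold change 0.23 ± 0.0586, SE, edgeR adjusted p = 0.0136). For Nfkbie, which encodes IkB-epsilon, WT mice had 76.4 to 85.1 CPM and CD25 KO mice 86.6 to 98.8 CPM (log2 fold change 0.20 ± 0.0578, SE, edgeR adjusted p = 0.023). Exons of Ccer2 and Sirt2 on the opposite strand cover 16.41% of the exonic length of Nfkbib. Of the 10 genes, 6 had splenic groups that did not overlap (Nfkb2, the 3 cytoplasmic inhibitors, Nfkbiz and Tnfaip3), against 20.4% of all genes tested. Of these, 5 were higher and 1 was lower in CD25 KO, against 11.2% and 9.21% of all genes.

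Nfkbiz (chromosome 16, 55811375-55838899) encodes IkB-zeta, a nuclear IkB protein that acts as a cofactor on selected target genes. Its level was 258, 238, 209 and 209.5 CPM in splenic WT and 191, 171, 198 and 177 CPM in splenic CD25 KO. The 4 CD25 KO mice all lay under the WT mice, and the WT mice were spread over a wider range than the CD25 KO mice. The log2 fold change was -0.31 ± 0.0703 (SE, edgeR adjusted p = 0.00582), and the gene was called in 4 of the 8 fits without 1 mouse, with an adjusted p of up to 0.0233. The other nuclear IkB genes on a pathway list, Bcl3 and Nfkbid, had splenic log2 fold changes of 0.11 ± 0.058 and -0.081 ± 0.0487 (SE), and neither was called by edgeR or DESeq2 or had an unadjusted p under 0.05 in either tissue.

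Tnfaip3 (chromosome 10, 19000910-19015657) encodes A20, a ubiquitin-editing enzyme that stops signaling to IKK and is itself an NF-kB target. It had the greatest log2 fold change of the 10 genes in each tissue. In splenic WT it was at 264, 261.5, 251 and 279.7 CPM, and in splenic CD25 KO at 313.5, 371, 438 and 453 CPM. All CD25 KO mice lay above all WT mice, and they were more spread (SD 64.3 CPM) than the WT mice (SD 11.8 CPM). The log2 fold change was 0.58 ± 0.0891 (SE), a 1.49-fold higher level, with an adjusted p of 0.00032 by edgeR. The call was kept in all 8 fits without 1 mouse, with adjusted p-values from 1.18e-05 to 0.00202. In 1 fit of all 18 libraries, in which the spread is shared with the more variable thymic mice, the same change had an adjusted p of 0.0995.

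**Figure D2:**
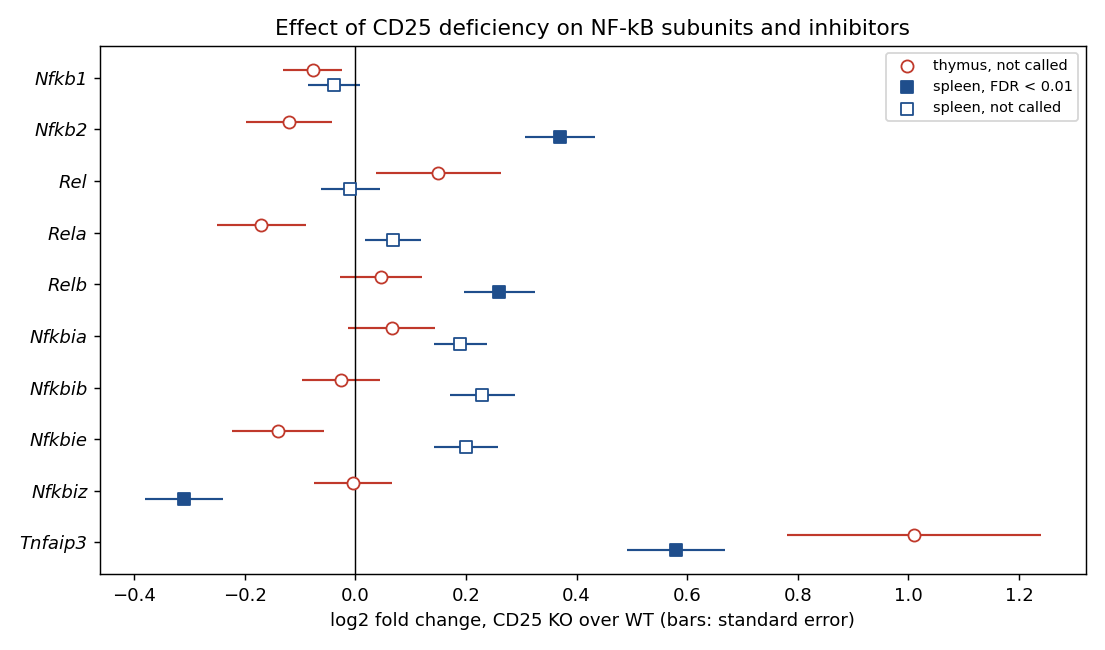
Log2 fold change of CD25 KO over WT (horizontal axis) with its standard error (bars) for each of the 10 genes in thymus (circles, 5 against 5 mice) and spleen (squares, 4 against 4 mice); filled symbols passed an FDR of 0.01. The filled squares are Nfkb2, Relb, Nfkbiz and Tnfaip3, and no circle is filled although the thymic value of Tnfaip3 is the farthest from 0.

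Other genes shifted with these in the spleen. The summed level of 8 effector Treg genes was 398 to 465 CPM in WT and 742 to 833 CPM in CD25 KO, and all 8 were higher at FDR under 0.01. The sum of 6 central Treg genes was 1903 to 2293 CPM in WT and 1636 to 1795 CPM in CD25 KO, with 4 lower and 1 higher. Of the 6 B cell markers, 4 were tested and 2 were called, Ighm and Pax5, both higher. Cd79a had a log2 fold change of -0.45 ± 0.137 (SE, edgeR adjusted p = 0.032), with splenic groups that did not overlap, and Cd79b one of 0.023 ± 0.0922 (SE). The sum of the 6 was 433 to 539 CPM in WT and 587 to 709 CPM in CD25 KO and was mostly Ighm, while Ms4a1 was near 0. The sum of 6 myeloid and dendritic cell markers was 16.02 to 21.1 CPM in WT and 21.6 to 28.1 CPM in CD25 KO. Of these 6, 3 were tested and 1 was called, Lyz2, with a log2 fold change of 1.03 ± 0.189 (SE). Csf1r and Cd68 had log2 fold changes of -0.24 ± 0.178 and 0.057 ± 0.126 (SE), so the shift was not one of the list as a whole. The part of these shifts, and of those in the Treg markers, in the changes of Tnfaip3, Nfkb2, Relb and Nfkbiz was not tested.

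In thymic Tregs, none of the 10 genes was called at FDR under 0.01 by edgeR's quasi-likelihood test, against 6.16% of the 16986 genes tested. At an unadjusted p under 0.05, 1 of the 10 passed, Tnfaip3, and DESeq2 called that gene too. It was also the 1 gene of the 10 at an FDR under 0.05, against 23.3% of all genes. The median log2 fold change of the 10 was -0.015, beside -0.002 over all genes. None of the 10 had groups that did not overlap, against 16.4% of all genes tested.

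Thymic Tnfaip3 came closest to the threshold among the 10. It was at 383, 299, 297, 227 and 311 CPM in the 5 WT mice and at 592, 670.2, 716, 777 and 273 CPM in the 5 CD25 KO mice. CD25 KO mice 1 to 4 lay above all WT mice, whereas CD25 KO mouse 5 lay within the WT range. The log2 fold change was 1.01 ± 0.229 (SE), a 2.02-fold higher level, and the adjusted p of 0.0108 by edgeR lay just outside the threshold. Without CD25 KO mouse 5 the log2 fold change was 1.2 and the adjusted p by edgeR was 0.000312. In that mouse, Il2ra was at 95.8 CPM, the lowest of all libraries. CD25 KO mice 3 and 1, with Tnfaip3 above the WT range, had nearly the same Il2ra level, at 96.05 and 104.8 CPM.

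None of the thymic subunits passed the test. Nfkb2 was at 159, 169, 129.8, 163 and 155 CPM in WT and at 144, 144, 141, 155 and 121 CPM in CD25 KO. The groups overlapped, and the log2 fold change was -0.12 ± 0.078 (SE, edgeR adjusted p = 0.274). Rel was at 375, 288, 261, 365 and 275 CPM in WT and at 311, 372, 307, 336 and 385 CPM in CD25 KO. The groups overlapped over most of their ranges, and the log2 fold change was 0.15 ± 0.113 (SE, edgeR adjusted p = 0.368). Rela, at 71.3 to 88.1 CPM in WT and 55.2 to 73.3 CPM in CD25 KO, had a log2 fold change of -0.17 ± 0.0808 (SE, edgeR adjusted p = 0.135). For Nfkb1 and Relb the log2 fold changes were -0.077 ± 0.0527 and 0.046 ± 0.0739 (SE), and the groups overlapped for both.

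Of the thymic inhibitors, Nfkbia was at 290.0, 288, 265, 254 and 337.5 CPM in WT and at 285, 306, 294, 329 and 271 CPM in CD25 KO. The CD25 KO values fell entirely within the WT range, with a log2 fold change of 0.066 ± 0.0788 (SE). Nfkbie spanned 47.9 to 56.9 CPM in WT and 38.2 to 50.4 CPM in CD25 KO (log2 fold change -0.14 ± 0.0828, SE). Nfkbib and Nfkbiz had log2 fold changes of -0.026 ± 0.0701 and -0.0045 ± 0.0702 (SE). No adjusted p of these 4 inhibitors was under 0.244 by edgeR.

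The thymic comparison carried a trend with base composition. Across 16945 genes, the thymic log2 fold change fell with the GC content of the transcript (Spearman's rho -0.40; genes are not independent replicates), and the same measure was -0.166 across 17423 genes in spleen. Among the 10 genes, Rel had the lowest GC content (42.5%), and Rela and Nfkb2 the highest (59.4% each). After a GC correction, the thymic log2 fold changes of Rel, Rela and Nfkb2 were -0.0034, 0.0021 and 0.053, whereas that of Tnfaip3 (47.1% GC) stayed at 1.01. Those of Relb, Nfkbia and Nfkb1 moved away from 0, to 0.21, 0.18 and -0.14, and none was called (edgeR adjusted p = 0.0248, 0.121 and 0.0822). The B cell sum in thymus was 107 to 135 CPM in WT and 59.2 to 77.0 CPM in CD25 KO, with Ms4a1 at no more than 9 reads in any thymic library. The effector Treg sum was 152 to 188 CPM in thymic WT and 103 to 161 CPM in thymic CD25 KO, and was mostly Cd44, which was not called. Of these 8 genes, 7 were tested, and 5 were called lower (Klrg1, Tigit, Fgl2, Prdm1 and Icos), beside 2.99% of all genes. Klrg1 had at most 1 read in any thymic CD25 KO library and passed the filter through the WT mice. The central Treg sum was 2840 to 3212 CPM in thymic WT and 2718 to 2975 CPM in thymic CD25 KO, and none of the 6 genes was called. The part of these marker shifts in the thymic values was not tested.

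Whether the log2 fold change of CD25 KO over WT differed between spleen and thymus was tested in 1 fit of all 18 libraries. Tissue, age, mouse model, the date in the library names and the thymic splenocyte transfer cannot be told apart in it. By edgeR, 1 of the 10 genes was called, Nfkb2, against 6.98% of the 18686 genes tested, and DESeq2 called Nfkbie as well (adjusted p = 0.00969). The effect on Nfkb2 was greater in spleen than in thymus by 0.50 ± 0.109 (SE) on the log2 scale, with an adjusted p of 0.00397 by edgeR. Its own log2 fold change was -0.12 in thymus, where groups overlapped, and 0.37 in spleen, where they did not. After GC correction the difference was 0.34 and its adjusted p by edgeR was 0.0106, so the call was lost. Without splenic CD25 KO mouse 2 or mouse 3 the difference was 0.48 or 0.46, with an adjusted p by edgeR of 0.0112 or 0.0103, which also lost the call.

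The other 9 genes did not pass edgeR's test of the difference at 0.01. At an FDR under 0.05, 2 of the 10 passed, against 16.9% of all genes. Nfkbie came closest to the stricter threshold, with a difference of 0.36 ± 0.108 (SE, edgeR adjusted p = 0.0281). For Tnfaip3, whose mean level in CD25 KO was 1.49 times that in WT in spleen and 2.02 times in thymus, the spleen minus thymus difference was -0.42 ± 0.284 (SE, edgeR adjusted p = 0.32). For Nfkbiz it was -0.29 ± 0.106 (SE, edgeR adjusted p = 0.0629). A call in spleen and none in thymus is therefore not shown to be a difference between tissues for Tnfaip3, Relb or Nfkbiz.

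Levels were compared between genes as RPKM, which is the CPM divided by the exonic length in kilobases. That length merges all annotated exons of a gene over its transcripts (12061 bases for Nfkb1 and 1610 for Nfkbia). The order of the genes and the subunit shares below depend on it. By CPM, Nfkb1 was above Nfkbia in splenic WT (means of 501 and 332 CPM). By RPKM, Nfkbia was the most abundant of the 10 in every group. Its mean was 178 RPKM (WT) and 184 RPKM (CD25 KO) in thymus, and 206 RPKM (WT) and 234 RPKM (CD25 KO) in spleen. Nfkbib was the least abundant in every group, with means from 10.0 to 15.8 RPKM, and its range did not overlap that of the gene above it. In splenic WT the levels ran from Nfkbia through Nfkbiz (45.6 RPKM), Nfkb1 (41.6), Rela (38.8), Tnfaip3 (36.6), Nfkb2 (29.6), Nfkbie (26.1), Rel (24.4) and Relb (20.1) to Nfkbib (13.5). Nfkbiz overlapped Nfkb1 in that order, Rela overlapped Tnfaip3 and Nfkbie overlapped Rel. In splenic CD25 KO, Tnfaip3 stood second at 54.5 ± 8.9 RPKM (SD) and overlapped neither Nfkbia nor Rela, while Nfkbiz stood sixth at 36.7 ± 2.47 RPKM (SD). In thymic WT, Tnfaip3 (42.0 RPKM), Rel (41.9) and Nfkb1 (40.8) followed Nfkbia and overlapped each other in that order.

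The make-up of the subunit transcripts differed between the sets of mice. As a share of the summed RPKM of the 5 subunits, Rel held 26.4 ± 3.17% (WT) and 29.9 ± 2.97% (CD25 KO) in thymus, but 15.8 ± 0.491% (WT) and 14.5 ± 1.35% (CD25 KO) in spleen (mean ± SD). Rela had the reverse order, with 16.2 ± 1.8% and 14.5 ± 1.45% in thymus and 25.1 ± 0.914% and 24.3 ± 0.629% in spleen (WT first, SD). The thymic and splenic ranges did not overlap for either gene. These are descriptions across tissues that also differ in age, mouse model and the date in the library names. Within the spleen, the share of Nfkb2 was 19.1 ± 0.19% (SD) in WT and 22.7 ± 1.52% (SD) in CD25 KO. That of Nfkb1 was 26.1 to 27.3% in WT and 23.3 to 24.6% in CD25 KO. Because the 5 shares add up to the whole, a higher share of 1 subunit lowers the others. The level of Nfkb1 itself overlapped between the splenic groups (log2 fold change -0.039 ± 0.0473, SE).

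**Figure D3:**
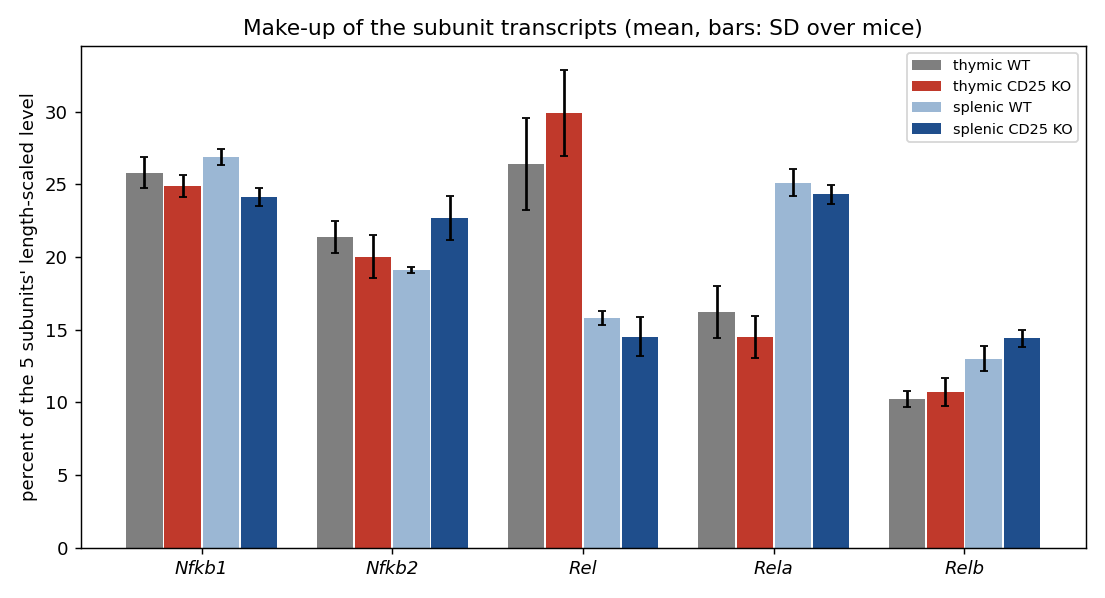
Share of each subunit in the summed length-scaled level (RPKM) of the 5 subunits, in percent (vertical axis, from 0), as the mean (bars) and SD over 5 thymic or 4 splenic mice per group. Rel makes up 26.4 and 29.9% in the thymic groups and 15.8 and 14.5% in the splenic groups, and Rela shows the reverse.

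The rest of the pathway was read from lists of 48 signaling genes and 17 target genes. In spleen, 47 signaling genes were tested, of which 3 were higher and 2 lower, beside 5.90% and 3.55% of all genes, which is near the share over all genes. Of the 8 genes from the antigen receptor to IKK, Malt1, a paracaspase that also cleaves A20, was higher by a log2 fold change of 0.80 ± 0.0832 (SE). Its splenic level was 154 to 185 CPM in WT and 249 to 331 CPM in CD25 KO. Bcl10, an adaptor protein that binds MALT1, was higher by 0.28 ± 0.0638 (SE) on the log2 scale, with an edgeR adjusted p of 0.00659, and was called in 2 of the 8 fits without 1 mouse. The median of the 8 was 0.057. Of the 6 IKK-related kinases, Ikbkb, the catalytic subunit IKK-beta, was lower by -0.35 ± 0.0589 (SE), from 221 to 249 CPM in WT to 169 to 195 CPM in CD25 KO (list median -0.068).

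Of 13 ubiquitin editors and other brakes in spleen, Otud7b, the deubiquitinase Cezanne, was higher (0.31 ± 0.0526, log2 fold change and SE) and the other 12 were not called (median 0.034). Of 10 TNF receptor family genes, Tnfrsf25, the receptor of TL1A, was lower, with a log2 fold change of -0.45 ± 0.0553 (SE), and the list median was 0.18. Of 8 TRAF, cIAP and RIPK1 adaptors tested, 0 were called by edgeR and 0 by DESeq2 (median 0.022). At an unadjusted p under 0.05, 2 of them passed, Birc2 (0.17 ± 0.0554) and Traf6 (-0.18 ± 0.0563, log2 fold change and SE).

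The 16 target genes tested in spleen moved in both directions, with 8 higher and 3 lower, beside 5.90% and 3.55% of all genes, and a median log2 fold change of 0.36. The greatest changes among those higher were in the chemokines Ccl3 and Ccl4, at low levels. Ccl3 was at 0 to 0.197 CPM in splenic WT and at 0.541 to 3.73 CPM in splenic CD25 KO, and Ccl4 at 0.155 to 0.591 and at 1.51 to 3.70 CPM. Their fitted log2 fold changes were 4.73 ± 0.665 and 2.97 ± 0.375 (SE), and in WT the reads behind them were few. Both genes passed the filter on low counts through the CD25 KO mice, where they were high. Their part in the count of 8 and in the median is therefore not read as a result. Ier3, an immediate early gene, was also low, at 0.366 to 0.685 CPM in WT and 0.950 to 1.78 CPM in CD25 KO (1.18 ± 0.278, log2 fold change and SE), and its call was kept in 1 of the 8 fits without 1 mouse. The other 5 that were higher were Bcl2a1d, Bcl2a1b, Gadd45b, Irf4 and Icam1, of which the near-identical Bcl2a1 copies may share reads. Irf4 is also a gene of effector Tregs.

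Lower in splenic CD25 KO were the cytokine genes Lta and Tnf and the survival gene Bcl2l1. Lta was at 31.8 to 37.6 CPM in WT and at 15.1 to 17.03 CPM in CD25 KO (log2 fold change -1.15 ± 0.0731, SE). Tnf was at 53.7 to 59.7 CPM in WT and at 40.3 to 46.2 CPM in CD25 KO (-0.40 ± 0.0598, log2 fold change and SE). Bcl2l1, which encodes Bcl-xL, was lower by -0.28 ± 0.0649 (log2 fold change and SE), and its call was kept in 3 of the 8 fits without 1 mouse.

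In thymus, 46 signaling genes were tested, of which 1 was higher and 4 were lower, beside 3.17% of all genes higher and 2.99% lower. Tab3, a TAK1-binding protein, was higher (0.52 ± 0.0941, log2 fold change and SE), but its adjusted p after GC correction was 0.0194. Ripk1, the kinase at the TNF receptor, and Traf6, a ubiquitin ligase upstream of TAK1, were lower, with log2 fold changes of -0.48 ± 0.0683 and -0.27 ± 0.0436 (SE). The TNF receptor family genes Tnfrsf4 (OX40) and Tnfrsf18 (GITR), which feed NF-kB signals to developing Tregs, were lower with log2 fold changes of -0.55 ± 0.0831 and -0.44 ± 0.0845 (SE). Tnfrsf4 was at 213 to 285 CPM in thymic WT and at 155 to 180 CPM in thymic CD25 KO, and Tnfrsf18 at 129.6 to 173 and at 97.6 to 122 CPM. After GC correction the adjusted p-values of Tnfrsf4 and Tnfrsf18 were 0.0151 and 0.0733, so both calls were lost. The medians were -0.12 for the 8 TNF receptor genes tested, -0.097 for the 9 adaptors, 0.037 for the 8 genes from the antigen receptor to IKK, 0.079 for the 6 IKK-related kinases and 0.10 for the 13 ubiquitin editors, and the last 2 lists held 0 calls by edgeR, with 2 kinases and 6 editors at an unadjusted p under 0.05 and 1 of each called by DESeq2.

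Of 13 target genes tested in thymus, 6 were lower and 1 was higher, beside 2.99% and 3.17% of all genes, with a median log2 fold change of -0.30. The count of 7 was 2 to 6 when 1 thymic mouse was left out, and 4 or fewer without WT mouse 2, 3 or 5 or CD25 KO mouse 1 or 3. Tnf was at 12.0 to 16.8 CPM in thymic WT and at 4.35 to 7.79 CPM in thymic CD25 KO (-1.29 ± 0.169, log2 fold change and SE). Irf4, a transcription factor of activated and effector T cells, was at 101 to 111.5 CPM in WT and at 42.9 to 76.8 CPM in CD25 KO (-0.81 ± 0.151, log2 fold change and SE). Bcl2l1 was lower by -0.67 ± 0.118 (log2 fold change and SE), and Lta, Icam1 and Ltb were also lower. With the GC correction the calls of Icam1 (-0.36, adjusted p = 0.0269) and Ltb (-0.11, adjusted p = 0.391) were lost in the edgeR fit. Irf1, which is also driven by STAT factors, was the 1 that was higher, at 184 to 241 CPM in WT and 242 to 297 CPM in CD25 KO (0.34 ± 0.0708, log2 fold change and SE). It was called in 1 of the 10 fits without 1 mouse, with an adjusted p of up to 0.0217.

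The difference between the tissues was also tested for these targets. Of the 16 target genes in that test, 7 were called by edgeR at FDR under 0.01. The spleen minus thymus difference of the log2 fold changes was positive for 6 of those called (Ccl3, Irf4, Cd83, Tnf, Icam1 and Bcl2a1d). It was negative for 1 (Lta). Over all genes, 4.50% were called with a positive difference and 2.49% with a negative one. Tnf was lower in CD25 KO in both tissues, less so in spleen (-0.40) than in thymus (-1.29, log2 fold changes). Lta was lower in both too, more so in spleen (-1.15) than in thymus (-0.66). The Lta difference lay just under the threshold (edgeR adjusted p = 0.00963). Its adjusted p was 0.00412 to 0.0248 in the fits without 1 mouse and 0.000624 with the GC correction. Ccl3 was too low to be tested in thymus and entered the fit through the splenic CD25 KO mice, where it is high, so its difference is not read as one between tissues. Irf4 and Icam1 were higher in CD25 KO in the spleen and lower in the thymus, each past the edgeR test in its own tissue. With the GC correction the thymic call of Icam1 was lost (-0.36, edgeR adjusted p = 0.0269), and that of Irf4 held in 5 of the 10 fits without 1 thymic mouse (adjusted p of up to 0.0157). Of the 48 signaling genes, 5 were called at the same threshold with a positive difference (Malt1, Tab2, Ripk1, Tnfrsf4 and Tnfrsf18). Called with a negative difference was 1, Ikbkb. For Malt1 and Ikbkb the splenic change was the one past the test in its own tissue, and for Ripk1, Tnfrsf4 and Tnfrsf18 the thymic change. With the GC correction the calls of the difference were lost for Tab2, Ripk1 and Tnfrsf18 (edgeR adjusted p = 0.0364, 0.0167 and 0.0193).

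**Figure D4:**
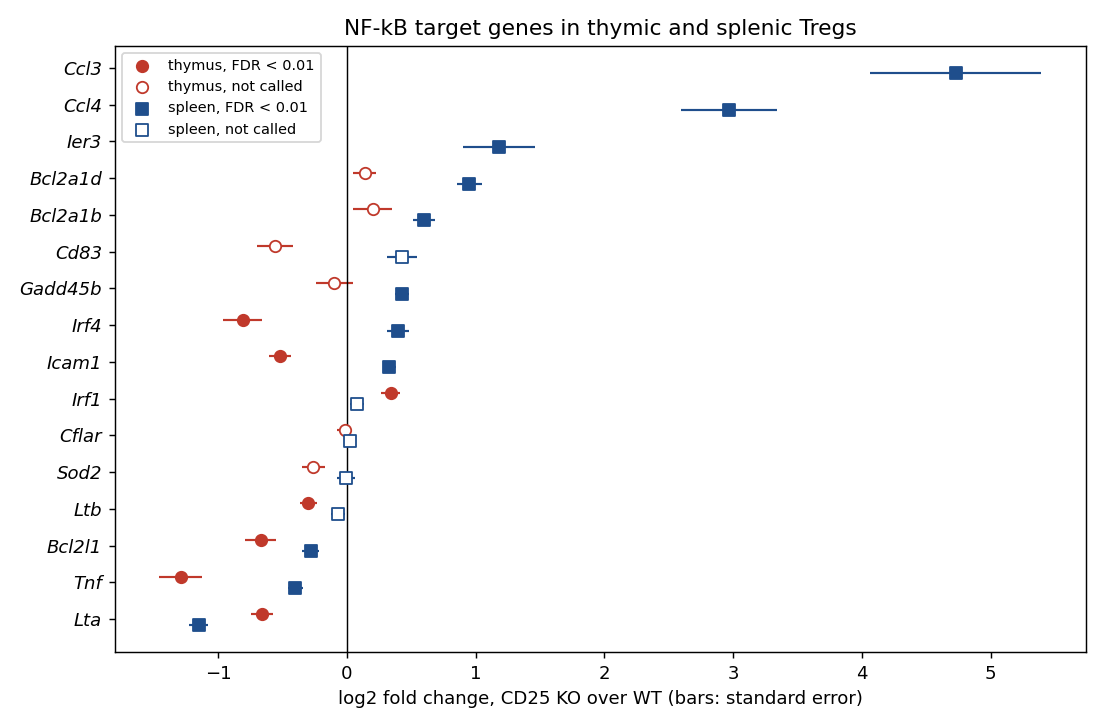
Log2 fold change of CD25 KO over WT (horizontal axis) with its standard error (bars) for 16 NF-kB target genes, ordered by their splenic value, in thymus (circles, 13 genes tested) and spleen (squares); filled symbols passed an FDR of 0.01. Irf4 and Icam1 have filled symbols on opposite sides of 0, while Bcl2l1, Tnf and Lta have filled symbols below 0 in both tissues.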

How the data were processed

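Per the labels and the study's methods, the authors prepared ribosomal RNA-depleted libraries, mapped paired-end reads to GRCm38 with STAR 2.5.0b, and deposited raw counts per gene (featureCounts 1.5.0, GENCODE M13). The strand setting of the counting is not given in the sources used here. Every count column belonged to 1 of the 18 samples. Symbols, lengths and coordinates came from GENCODE M21, with promoter sequence from RefSeq. The counts were tested in R 4.3.3 with edgeR 4.0.16 (filterByExpr, TMM, quasi-likelihood test, Benjamini-Hochberg over all genes, FDR under 0.01), per tissue, and in a fit of all 4 groups for the difference. DESeq2 1.42.0, the tool of the study, was an alternative, as were other normalizations, filters, a GC correction (spline with 6 degrees of freedom), a replicate block and leaving out each mouse. The fits were tested on simulated data. CPM used TMM over all 18 libraries. Total counts per library were 17239774 to 32639570, so that 3 reads equal 0.115 to 0.174 CPM in the shallowest library of each group, and this covers counting error only. Named were all 10 genes, Il2ra and, per pathway list and tissue, up to 3 called genes with the largest change in each direction. For the 2 of the 10 genes with the largest summed change, the 3 genes of most similar pattern were named too. Genes mentioned beyond this rule were chosen after their values were seen. The members and lists were chosen with earlier results of these data known. Some listed genes are not reported here by name.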

Additional observations from a re-analysis of the deposited data

Results flagged for a closer look

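In 40 groups of mice examined for a mouse set apart by more than Dixon's 95% critical value, 4 were found, where chance gives about 1 in 20. In thymic CD25 KO, mouse 5 had the lowest level of Rela (55.2 CPM), of Relb (52.5 CPM) and of Tnfaip3 (273 CPM). The other 4 mice of that group lay between 70.4 and 73.3 CPM for Rela, between 64.4 and 67.9 CPM for Relb and between 592 and 777 CPM for Tnfaip3. In thymic WT, mouse 3 had the lowest level of Nfkbiz (164.4 CPM).

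Deviations of the thymic CD25 KO libraries from the thymic WT mean correlated with transcript GC content across 16945 genes with Spearman's rho from -0.24 to -0.458, the latter in mouse 5, and the same measure ran from -0.341 to 0.462 in the thymic WT libraries. Nfkb2 differed in its CD25 KO effect between spleen and thymus by 0.50 on the log2 scale (edgeR adjusted p = 0.00397).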

How the results depend on the processing

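The count of the 10 genes called in thymus was 0 and became 1, Tnfaip3, at an FDR of 0.05, with upper-quartile normalization, with DESeq2, without a filter on low counts, with at least 10 counts in every sample and in 1 fit of all 18 samples, and it was 0 to 1 when 1 mouse was left out (1 without thymic CD25 KO mouse 5). In spleen the count of 4 became 7 at an FDR of 0.05, 6 with DESeq2 (with Nfkbia and Nfkbib), 6 with the GC correction (with Nfkbib and Nfkbie), 3 with upper-quartile normalization (without Relb) and 1 in 1 fit of all 18 samples, and was 2 to 4 when 1 mouse was left out (2 without splenic WT mouse 2 or splenic CD25 KO mouse 2). For the difference the count of 1 became 2 at an FDR of 0.05, 0 with upper-quartile normalization, 2 with DESeq2, 0 with the GC correction and 2 without the 2 thymic CD25 KO libraries with the most Il2ra, and was 0 to 1 when 1 mouse was left out (0 without splenic CD25 KO mouse 2 or 3). The causes were not tested.

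Of the values whose sign turned, none was called. With the GC correction thymic log2 fold changes went from -0.12 to 0.053 for Nfkb2, from 0.15 to -0.0034 for Rel and from -0.17 to 0.0021 for Rela. They went from -0.026 to 0.15 for Nfkbib, from -0.14 to 0.0085 for Nfkbie and from -0.0045 to 0.063 for Nfkbiz. Thymic Nfkbiz became 0.00055 with RLE normalization, 0.00062 with DESeq2 and 0.03 with upper-quartile normalization, where thymic Nfkbib became 0.011. Without the 2 thymic CD25 KO libraries with the most Il2ra, thymic Relb was -0.0068 and Nfkbia -0.009. With upper-quartile normalization the Nfkb1 difference was -0.023. When 1 mouse was left out, thymic Nfkbiz ran from -0.046 to 0.04, thymic Nfkbib from -0.07 to 0.0095 and splenic Rel from -0.046 to 0.015.

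Over all genes, the thymic calls numbered 1047 (539 higher, 508 lower), against 3951 at an FDR of 0.05, 2763 with DESeq2, 2881 in 1 fit of all 18 samples, 2008 without the 2 libraries with the most Il2ra, 725 with the GC correction and 808 higher against 440 lower with upper-quartile normalization. Splenic calls numbered 1651 (1031 higher, 620 lower), against 795 in 1 fit of all 18 samples, 3001 at an FDR of 0.05 and 920 higher against 769 lower with upper-quartile normalization. Calls of the difference were 1305 (840 higher, 465 lower), against 3149 at an FDR of 0.05, 2188 with DESeq2, 2307 without the 2 libraries, 616 higher and 669 lower with upper-quartile normalization and 665 higher and 666 lower with the GC correction.

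With the replicate block in thymus 0 of the 10 genes and 209 genes in all were called. Same-numbered thymic mice had correlations of their deviations from -0.238 to 0.144, so the numbers did not pair the mice, and only number 1 had its best partner in its own number.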

Other observations

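Genes with a pattern close to that of Tnfaip3 and Nfkb2 were searched over the 18 samples, by the mean absolute difference of log2 CPM after subtraction of the WT mean of the same tissue, among 9437 genes. Nearest to Tnfaip3 were Dnajb9 (0.169), a chaperone of the endoplasmic reticulum, Ptp4a1 (0.215), a tyrosine phosphatase, and Trp53inp2 (0.226), beside a median of 0.488 over all these genes. Their thymic and splenic log2 fold changes were 1.00 and 0.27 for Dnajb9, 0.85 and 0.32 for Ptp4a1 and 0.73 and 0.50 for Trp53inp2. Nearest to Nfkb2 were Zap70 (0.0677), the proximal kinase of the T cell receptor, Tnfrsf1b (0.0717), the TNF receptor 2, and Nf2 (0.0721), beside a median of 0.197. Their thymic and splenic log2 fold changes were -0.091 and 0.31 for Zap70, -0.13 and 0.21 for Tnfrsf1b and -0.10 and 0.34 for Nf2. The points share libraries and no test was made.

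The other marker lists overlapped between thymic WT and CD25 KO. Summed levels were 19.6 to 52.6 and 20.2 to 31.6 CPM for 2 CD8 T cell markers, 60.0 to 177 and 74.1 to 134 CPM for 6 immature thymocyte markers, and 12.4 to 29.96 and 8.40 to 39.8 CPM for 4 erythroid markers (WT first). In the spleen the immature thymocyte markers summed to 27.1 to 33.1 CPM in WT and 33.5 to 36.7 CPM in CD25 KO, nearly all of it Cd1d1 (26.2 to 31.7 and 32.7 to 36.2 CPM), with Rag1 at 0 reads in every splenic library, while CD8 and erythroid markers overlapped.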
